A study of Mus musculus with 2 samples.

Results

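The results cover 6 genes that carry the signal of glial cell line-derived neurotrophic factor (GDNF) from the somatic cells of the testis to its stem cells. They are the ligand gene Gdnf, the receptor genes Gfra1 and Ret, and the response genes Etv5, Lhx1 and Bcl6b. The 6 were taken by symbol out of the 32285 genes of the count tables, and each had unique molecular identifiers (UMIs) in called cells. The ligand was read in somatic cells, and the receptors and response genes in spermatogonia.

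Whole testes of C57BL/6 males at postnatal day 13 were profiled by droplet single-cell RNA-seq with the 10x 3' V3 kit. The knockout library came from Psma7 F/-;Stra8-Cre KI/+ mice and the control library, labelled WT, from Psma7 F/+ mice. Psma7 encodes a subunit of the proteasome core, the complex that degrades ubiquitin-tagged proteins. There was 1 library per genotype, and the labels do not give the number of animals in each. The knockout genotype holds a null Psma7 allele in every cell, Cre from the Stra8 locus acts in germ cells, and the control's label names no Cre. Differences between the libraries therefore cannot be told apart from differences between animals, and no test between genotypes was possible. Levels are given in CPM, the UMIs of a gene per 1000000 UMIs of the cells named. Intervals are exact 95% intervals that cover counting error only.

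GDNF is a secreted growth factor that Sertoli cells and peritubular myoid cells provide to the stem cells of the seminiferous tubule. It binds GFRA1, a co-receptor anchored on the outer membrane, and the pair activates RET, a receptor tyrosine kinase, which signals through SRC family, PI3K-AKT and RAS-ERK pathways. In mouse spermatogonial stem cells this signal sustains self-renewal and raises the transcription factor genes Etv5, Lhx1 and Bcl6b, and stem cells are lost when the ligand or either receptor chain is missing.

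The 6 genes lie on 5 mouse chromosomes in GENCODE M21, on build mm10. Gdnf (ENSMUSG00000022144) lies at chr15:7810846-7837575 on the plus strand. Gfra1 (ENSMUSG00000025089) lies at chr19:58235604-58455909, Ret (ENSMUSG00000030110) at chr6:118151745-118197718 and Etv5 (ENSMUSG00000013089) at chr16:22381309-22439719, all on the minus strand. Lhx1 (ENSMUSG00000018698) at chr11:84518284-84525535 and Bcl6b (ENSMUSG00000000317) at chr11:70224128-70229798 share a chromosome and the minus strand. RefSeq starts on build GRCm38.p6 were found for 4 of the 6 genes, with none for Ret and Bcl6b, and 240 bases from 250 to 10 before each start were searched. The windows of Gdnf, the ligand gene, and of Lhx1, the response gene that differed most between the libraries, are shown. Capitals mark matches, on either strand, to a CRE half-site (TGACG), which CREB family factors bind. They also mark an N-box (CACNAG) or an E-box (CACGTG), which HES and HEY repressors bind. The last word searched was CCGGAA, an ETS site that ETV5 and its relatives bind.
Gdnf start 1, chr15:7809798-7810037, plus strand: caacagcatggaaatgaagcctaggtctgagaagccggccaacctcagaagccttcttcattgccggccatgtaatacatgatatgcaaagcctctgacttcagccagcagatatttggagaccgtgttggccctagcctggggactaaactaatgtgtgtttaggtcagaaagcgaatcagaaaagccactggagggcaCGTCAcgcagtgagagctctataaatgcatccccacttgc
Gdnf start 2, chr15:7813477-7813716, plus strand: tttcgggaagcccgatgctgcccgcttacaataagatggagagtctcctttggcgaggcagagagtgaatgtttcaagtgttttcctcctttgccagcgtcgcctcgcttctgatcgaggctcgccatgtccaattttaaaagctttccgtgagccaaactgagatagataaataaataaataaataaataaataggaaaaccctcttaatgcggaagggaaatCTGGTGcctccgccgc
Lhx1, chr11:84525545-84525784, minus strand: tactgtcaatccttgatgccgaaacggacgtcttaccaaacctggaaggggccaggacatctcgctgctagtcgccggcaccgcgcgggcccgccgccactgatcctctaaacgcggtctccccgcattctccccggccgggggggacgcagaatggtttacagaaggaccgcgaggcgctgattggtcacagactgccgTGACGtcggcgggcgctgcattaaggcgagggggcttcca
The first Gdnf window lies outside the annotated gene and holds CGTCA, the reverse complement of the CRE half-site. The other Gdnf start lies in an intron of the gene, and its window holds CTGGTG, an N-box read on the opposite strand. Lhx1's window lies outside the gene and holds TGACG. Such short words are common. Of 32851 promoter windows of the same length, 16.9% held the CRE half-site, 35.6% the N-box, 5.69% the E-box and 11.2% CCGGAA. No E-box or CCGGAA stood in these 3 windows, and shorter ETS words such as GGAA were not searched. Of the windows not shown, that of Gfra1 held 1 CCGGAA. A match describes the letters only.

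Called cells had at least 1000 UMIs, 500 genes and at most 20% mitochondrial UMIs. They numbered 10864 in the knockout and 11232 in the control library, and 10540 and 10726 remained after doublets were removed. Median depth was 5370.5 UMIs per cell in the knockout and 8040.5 in the control. Of barcodes with at least 1000 UMIs and 500 genes, before the mitochondrial limit, 34 occurred in both libraries. Cells were clustered without the 6 genes, and the clusters were named from marker genes. The knockout held 6509 Sertoli cells, 288 undifferentiated and 51 differentiating spermatogonia and 1 cell at meiotic entry, against 3843, 512, 1694 and 1342 in the control. Psma7 was at 94.6 CPM in undifferentiated spermatogonia of the knockout and 246 in those of the control, and at 86.9 against 236 in Sertoli cells. The log2 ratios, -1.37 (-1.53 to -1.22) in undifferentiated spermatogonia and -1.44 (-1.50 to -1.38) in Sertoli cells, overlap, so the germ cells of that class were no further below the control than Sertoli cells, in which Cre from Stra8 is not known to act. Differentiating spermatogonia had 42.4 against 293. The 10 markers of undifferentiated spermatogonia were all detected in that class in both libraries. Each was lower in the knockout, with a median log2 ratio of -0.71 and a summed level of 669 CPM against 1101 in the control.

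Gdnf was higher in the somatic cells of the knockout. Somatic cells held 4253 Gdnf UMIs in the knockout and 1100 in the control, which gave 50.6 CPM (49.1 to 52.2) against 18.6 (17.5 to 19.8). The log2 ratio was 1.44 (1.35 to 1.54), or 2.72-fold. A Gdnf UMI was found in 25.6% of somatic cells in the knockout and 11.4% in the control, and in 15.7% against 5.02% after thinning each cell to 3000 UMIs. Among the 5 of the 6 genes with at least 30 UMIs in somatic cells, Gdnf was the only gene at least 1.5-fold higher in the knockout. Over all such genes, 8.84% were that much higher.

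The largest difference of the somatic classes measured was in Sertoli cells, the nurse cells of the tubule. Their Gdnf level was 94.8 CPM (91.8 to 97.9; 3699 UMIs) in the knockout and 23.2 (21.5 to 25; 674 UMIs) in the control, a log2 ratio of 2.03 (1.91 to 2.15), or 4.08-fold. At 3000 UMIs per cell, 24.0% of knockout Sertoli cells (22.8 to 25.3; 1132 of 4711) and 6.59% of control Sertoli cells (5.75 to 7.51; 208 of 3158) held a Gdnf UMI. Without thinning, a positive cell held 1.69 UMIs on average in the knockout and 1.37 in the control, a value that itself rises with the level. Cells with at least 3 Gdnf UMIs made up 5.53% of Sertoli cells (360 cells) in the knockout and 0.963% (37 cells) in the control, and the highest single cells held 12 and 7. In Sertoli cells 18.3% of genes with at least 30 UMIs were at least 1.5-fold higher in the knockout, and of the 5 measured members Gdnf and Bcl6b were. Gfra1 was that much lower there, at 0.743 CPM from 29 UMIs against 1.86 from 54, beside 8.87% of all genes, but 44 of the control's UMIs lay in 3 cells of Sertoli cluster 13. Without that cluster, a choice made after seeing the data, the direction turned, with 0.737 CPM (24 UMIs) against 0.410 CPM (10 UMIs).

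Peritubular myoid cells, the contractile cells around the tubule, had no such difference beyond counting error. They had 26.1 CPM of Gdnf (22.4 to 30.3; 178 UMIs) in the knockout and 30.2 (25.9 to 35.0; 177 UMIs) in the control, a log2 ratio of -0.21 with an interval of -0.52 to 0.10 that holds 0. In this class 5.59% of genes were at least 1.5-fold higher in the knockout and 6.61% at least that much lower. Leydig cells, the steroid-making cells between tubules, had 23.5 against 34.2 CPM, a log2 ratio of -0.54 (-0.88 to -0.20). Interstitial stromal cells had 7.46 against 5.47, a log2 ratio of 0.44 (0.08 to 0.82).

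Across classes in the knockout, Sertoli cells had the highest Gdnf level, peritubular myoid and Leydig cells followed with overlapping intervals, and stromal and endothelial cells came next, also overlapping. In the control the order was Leydig, peritubular myoid and Sertoli cells, with Leydig and myoid cells overlapping. Endothelial cells held 7 Gdnf UMIs in the knockout and 2 in the control. Undifferentiated spermatogonia, the receiving cells, held 10 UMIs in the knockout (2.27 CPM; 1.09 to 4.17) and 1 UMI in the control (0.131 CPM; 0.00331 to 0.728). Droplets of 10 to 100 UMIs, a measure of free RNA, had 39.3 CPM of Gdnf (30.4 to 49.9) in the knockout and 4.57 (1.48 to 10.7) in the control. The part of free RNA in the few Gdnf UMIs of germ cells was not tested.

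Counting UMIs rather than levels, Sertoli cells supplied 86.4% of the knockout's Gdnf UMIs and 59.0% of the control's. Peritubular myoid cells supplied 4.16% in the knockout and 15.5% in the control, Leydig cells 3.36% against 13.3%, and stromal cells 5.04% against 7.62%. These shares also follow cell numbers: Sertoli cells made up 61.8% of cells in the knockout and 35.8% in the control.

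**Figure D1:**
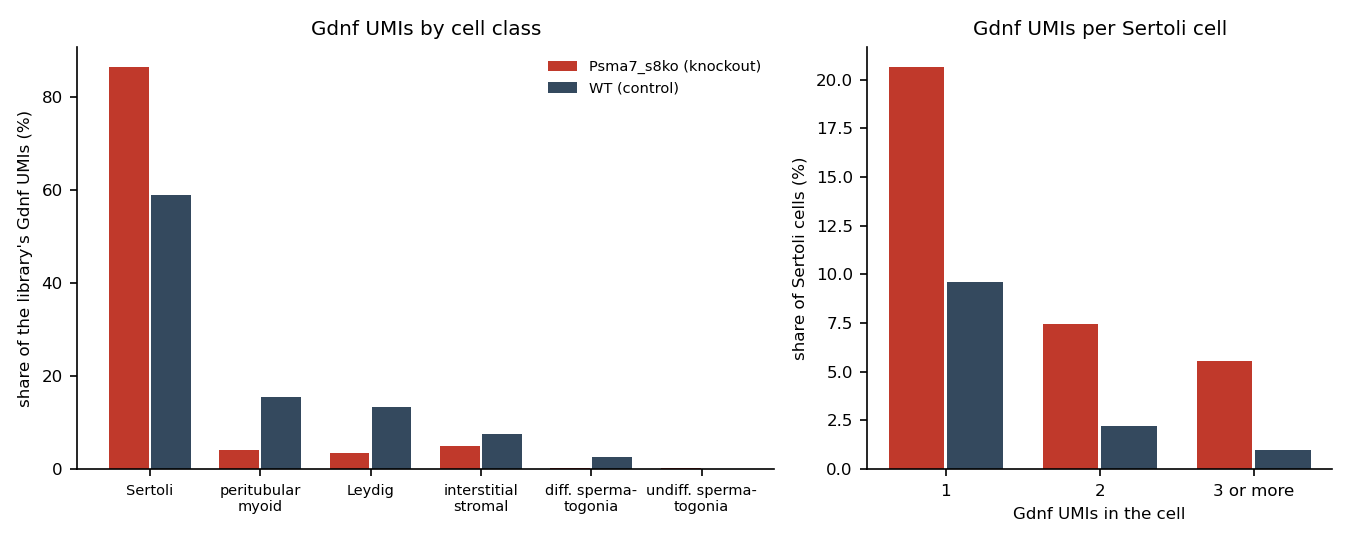
Bars give, in the left panel, the share of each library's Gdnf UMIs (%) found in each cell class, and in the right panel the share of Sertoli cells (%) with 1, 2 or at least 3 Gdnf UMIs, for the knockout and the control library. Sertoli cells hold 86.4% of Gdnf UMIs in the knockout and 59.0% in the control, and cells with at least 3 Gdnf UMIs are 5.53% against 0.963% of Sertoli cells.

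Sertoli cells fell into 10 clusters that the libraries filled unequally, and 7 of them held at least 50 cells of each library. The largest of the knockout, cluster 0, had 2372 knockout and 161 control cells, while cluster 4 had 81 and 1189. Gdnf was higher in the knockout in all 7, and the interval lay above 0 in 6. In cluster 1, with the highest levels of the 7 in both libraries, it was at 139 CPM in the knockout and 79.4 in the control, a log2 ratio of 0.78. In cluster 4 it was at 99.3 against 30.6, a log2 ratio of 1.71. Cluster 19 had the lowest levels, 16.4 against 10.4, with a log2 ratio of 0.68 whose interval holds 0. Over the 7 clusters summed, the log2 ratio was 1.72, below the 2.03 of all Sertoli cells. Both values lie above the ratio inside every one of the 7, which ran from 0.59 to 1.71. They therefore include how unequally the libraries filled the clusters.

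The same Sertoli cells differed in Amh, a gene that marks their age. Amh, the anti-Müllerian hormone gene that Sertoli cells switch down as they mature, was at 286 CPM in the knockout and 61.9 in the control, a log2 ratio of 2.21, and was higher in all 7 clusters with every interval above 0. Krt18 and Ncam1, the other genes of immature Sertoli cells listed, were at 1.51 against 0.551 and at 3.13 against 1.48. Of 5 genes of maturing Sertoli cells none was higher: the log2 ratio was -1.18 for Gata1 (35.9 against 81.5), -1.28 for Rhox5 (11.7 against 28.6), -0.56 for Cldn11 and -0.07 for Trf. Inside the 7 clusters these genes were less uniform. Krt18 was higher in 3 and lower in 4, and Ncam1 higher in 5 and lower in 1, with no interval clear of 0. Gata1 was lower in 6, Cldn11 in 7 and Rhox5 in 5, each with 4 intervals below 0, while Trf was higher in 6 with no interval clear of 0. Both short lists were chosen after the values of these libraries were seen, and the part of Sertoli age in the Gdnf difference was not tested. Sertoli cells with at least 3 UMIs over Mki67, Top2a, Cdk1, Ccnb1, Birc5 and Cenpf were taken as dividing. Such cells were 8.48% of the class in the knockout and 5.98% in the control. Cells were not thinned for this count, so it varies with depth. Median depth was 7337 UMIs in the knockout and 18196 in the control for dividing cells, and 3934 and 4909 for the others. Gdnf was at 74.6 against 21.8 CPM in dividing and at 99.5 against 23.5 in the other Sertoli cells.

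Of the genes known to act on Gdnf in somatic cells, 14 of 15 had at least 30 UMIs in Sertoli cells. None was at least 1.5-fold higher in the knockout, and 4 were at least 1.5-fold lower, beside 18.3% of all genes higher and 8.87% lower. Their median log2 ratio was -0.09, and 0.04 over all genes. The highest were Nr2f2, a nuclear receptor gene, at 11 against 7.44 CPM, and Jag1, a Notch ligand gene, at 4.56 against 3.38. The lowest were the Notch target genes Hes1 and Hey1, which encode repressors reported to act on Gdnf in mouse Sertoli cells. Hes1 was at 75.0 CPM in the knockout and 129.8 in the control, a log2 ratio of -0.79. Hey1 was at 1.23 against 4.68, a log2 ratio of -1.92. Hes1 was lower in the knockout in 6 of the 7 shared clusters, with 5 intervals below 0, and was at 78.5 against 78.2 in cluster 25. Notch1, the receptor gene, was at 50.9 against 77.8 in the class and lower in 7 of 7 clusters, with 1 interval below 0. Fshr, the receptor of the follicle-stimulating hormone that raises Gdnf, was at 315 against 309.6, and Gata4 at 404 against 391; these 2 and Notch1 were named after their values were seen.

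Hes1 and Hey1 were also compared between Sertoli cells with and without a Gdnf UMI among 3000. In the knockout Hes1 was at 84.0 CPM in cells with and 67.6 in those without, a log2 ratio of 0.31 (0.18 to 0.44). In the control it was at 135 and 125, a log2 ratio of 0.12 (-0.08 to 0.31). Hey1 was at 1.24 and 1.04 in the knockout and at 2.80 and 4.46 in the control. Both intervals of its ratio held 0. Over Sertoli clusters, Pearson's r between the levels of Gdnf and Hes1 was 0.67 in the knockout (8 clusters) and 0.72 in the control (9 clusters). Over these 17 points together it was 0.17. For Hey1 the same values were 0.46, -0.18 and -0.33. They describe points that share libraries and depth. The part of Hes1 and Hey1 in the Gdnf difference was not tested. In peritubular myoid cells Hes1 was at 429 in the knockout against 253 in the control, and 3 of the 14 measured regulators were at least 1.5-fold higher and none lower, beside 5.59% of all genes higher and 6.61% lower. There the highest were Ptgs2 (11.3 against 2.39), a prostaglandin synthase gene, and Notch1 (12.6 against 5.29), and the lowest Creb1 (89.5 against 106) and Nr2f2 (958 against 1162).

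**Figure D2:**
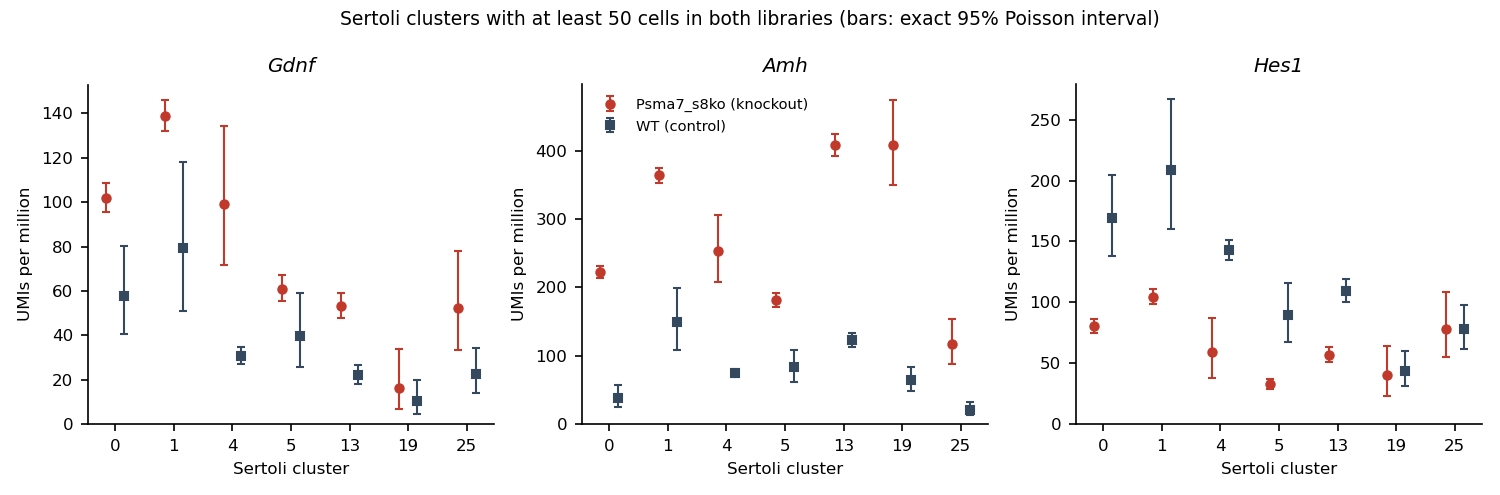
Points give CPM of Gdnf, Amh and Hes1 in the 7 Sertoli clusters with at least 50 cells in both libraries, knockout left of control, with exact 95% Poisson intervals as bars. Gdnf is higher in the knockout in all 7, by log2 ratios between 0.59 in cluster 5 and 1.71 in cluster 4.

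Gfra1, the GDNF-binding co-receptor, was at 364 CPM (347 to 383; 1606 UMIs) in undifferentiated spermatogonia of the knockout and 267 (255 to 278; 2041 UMIs) in those of the control. The log2 ratio was 0.45 (0.36 to 0.55), or 1.37-fold. Cells were not matched for stage within this class. Each of its 10 markers was lower in the knockout, with Sall4 at 114 against 145 CPM and Upp1 at 6.58 against 52.1. The part of the makeup of the class in its ratios, here and for Ret and the response genes below, was not tested. At 3000 UMIs per cell, 50.7% of undifferentiated spermatogonia (44.6 to 56.9; 137 of 270) in the knockout and 40.9% (36.5 to 45.4; 198 of 484) in the control held a Gfra1 UMI, and the intervals overlap. Without thinning the shares were 76.0% (70.7 to 80.9) and 62.7% (58.3 to 66.9), at median depths of 13102 and 13274 UMIs, and these intervals stand apart. In Sertoli cells, taken as a class without the co-receptor, the thinned shares were 0.255% and 0.158%, at median depths of 4100.0 and 5082 UMIs. Cells with at least 3 Gfra1 UMIs made up 51.4% of the undifferentiated class in the knockout and 41.6% in the control, and the highest single cells held 74 and 43.

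Ret, the kinase chain, was at 105 CPM (95.7 to 115; 463 UMIs) in undifferentiated spermatogonia of the knockout and 85.0 (78.6 to 91.8; 651 UMIs) in those of the control, a log2 ratio of 0.31 (0.13 to 0.48), or 1.24-fold. The thinned share of positive cells was 28.5% in the knockout and 24.2% in the control, against 0.149% and 0.127% in Sertoli cells. Both receptor genes were far lower in the more advanced germ cells of both libraries. In differentiating spermatogonia Gfra1 was at 19.1 against 5.68 CPM and Ret at 5.82 against 4.15. Control cells at meiotic entry had 0.150 for Gfra1 and 0.250 for Ret. Undifferentiated spermatogonia held 89.7% of the knockout's Gfra1 UMIs and 88.9% of the control's. Over all called cells Gfra1 was at 19.8 CPM in the knockout and 19.9 in the control, although the knockout had fewer cells of this class.

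Over undifferentiated and differentiating spermatogonia together, both receptor genes differed far more. Gfra1 was at 290.4 CPM in the knockout and 61.4 in the control, a log2 ratio of 2.24 (2.15 to 2.33), and Ret at 83.8 against 21.4, a log2 ratio of 1.97 (1.80 to 2.13). These ratios include the makeup of the pool, in which differentiating cells were 51 of 339 in the knockout and 1694 of 2206 in the control. All 6 genes, Gdnf with 16 UMIs in the knockout and 30 in the control among them, were at least 1.5-fold higher in the knockout over the pool, where 27.0% of all genes with at least 30 UMIs were. In differentiating spermatogonia alone 5 of 6 were, against 26.7% of all genes. Of the 51 cells of the knockout, however, 48 lay in cluster 10 and 3 in cluster 8, against 788 and 906 of the control. Within cluster 10 Gfra1 was at 19.3 CPM against 9.03, and Ret at 5.87 against 6.74. Within undifferentiated spermatogonia 1 of 5 measured members, Lhx1, was that much higher, against 14.2% of all genes.

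UMIs of both receptor genes in the same cell were found in 15.6% of undifferentiated spermatogonia (11.4 to 20.4; 42 of 270) in the knockout and 13.2% (10.3 to 16.6; 64 of 484) in the control, at 3000 UMIs per cell. Gfra1 without Ret was found in 35.2% against 27.7%, and Ret without Gfra1 in 13.0% against 11%. Cells with neither were 36.3% (30.6 to 42.3) of the class in the knockout and 48.1% (43.6 to 52.7) in the control. Of these 4 comparisons, the intervals stood apart in the last alone. Without thinning, both genes were seen in 58.3% of cells (52.4 to 64.1) in the knockout and 42.0% (37.7 to 46.4) in the control.

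Lhx1, a LIM homeobox gene induced by GDNF, was the response gene with the largest difference. Undifferentiated spermatogonia had 54.9 CPM of Lhx1 (48.2 to 62.3; 242 UMIs) in the knockout and 15.9 (13.2 to 19.0; 122 UMIs) in the control, a log2 ratio of 1.78 (1.46 to 2.11), or 3.44-fold. At 3000 UMIs per cell 13.0% of them held an Lhx1 UMI in the knockout and 4.96% in the control, and without thinning 37.2% (107 cells) against 13.5% (69 cells). Cells with at least 3 Lhx1 UMIs made up 11.5% and 2.73%. In somatic cells the gene was near background, with 8 UMIs in all those of the knockout and 11 in those of the control. Differentiating spermatogonia had 4.16 CPM (1.35 to 9.71; 5 UMIs) in the knockout and 1.42 (1.01 to 1.93; 40 UMIs) in the control.

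Etv5, an ETS factor gene needed to keep stem cells in the mouse testis, was at 131 CPM (121 to 143) in undifferentiated spermatogonia of the knockout and 90.9 (84.3 to 97.9) in those of the control, a log2 ratio of 0.53 (0.37 to 0.69), or 1.45-fold. Thinned shares were 30.7% and 22.5%. Somatic classes also had Etv5. Sertoli cells were at 53.7 (51.4 to 56.1) in the knockout and 42.7 (40.4 to 45.2) in the control, a log2 ratio of 0.33 (0.23 to 0.43). Inside the 7 Sertoli clusters with at least 50 cells of each library, every interval held 0. Cluster 0 had 53.0 against 72.4, a log2 ratio of -0.47 (-0.89 to 0.02), and cluster 5 had 41.8 against 39.9, a log2 ratio of 0.04 (-0.52 to 0.72). Of these clusters 5 were lower in the knockout, and clusters 5 and 19 higher. Over the 7 shared clusters summed the log2 ratio was 0.21, above that of each single cluster, so it includes how unequally the libraries filled them. Peritubular myoid cells were at 59.6 against 47.4, and stromal cells at 38.3 against 25.3, where a log2 ratio of 0.60 made Etv5 the only 1 of 3 measured members at least 1.5-fold higher, beside 6.21% of all genes. Free RNA had 44.6 CPM of Etv5 in the knockout and 25.6 in the control.

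Bcl6b, a BTB zinc finger repressor gene, had few UMIs. Undifferentiated spermatogonia were at 20.9 CPM (16.8 to 25.6; 92 UMIs) in the knockout and 14.6 (12.0 to 17.6; 112 UMIs) in the control, a log2 ratio of 0.51 (0.10 to 0.92), or 1.43-fold. Its highest level in both libraries was in endothelial cells, the vessel lining, at 49.2 (35.9 to 65.8; 45 UMIs) in the knockout and 64.7 (53.4 to 77.8; 113 UMIs) in the control. That ratio, -0.39 on the log2 scale, had an interval of -0.93 to 0.11 that holds 0. Sertoli cells were at 2.46 against 1.55.

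**Figure D3:**
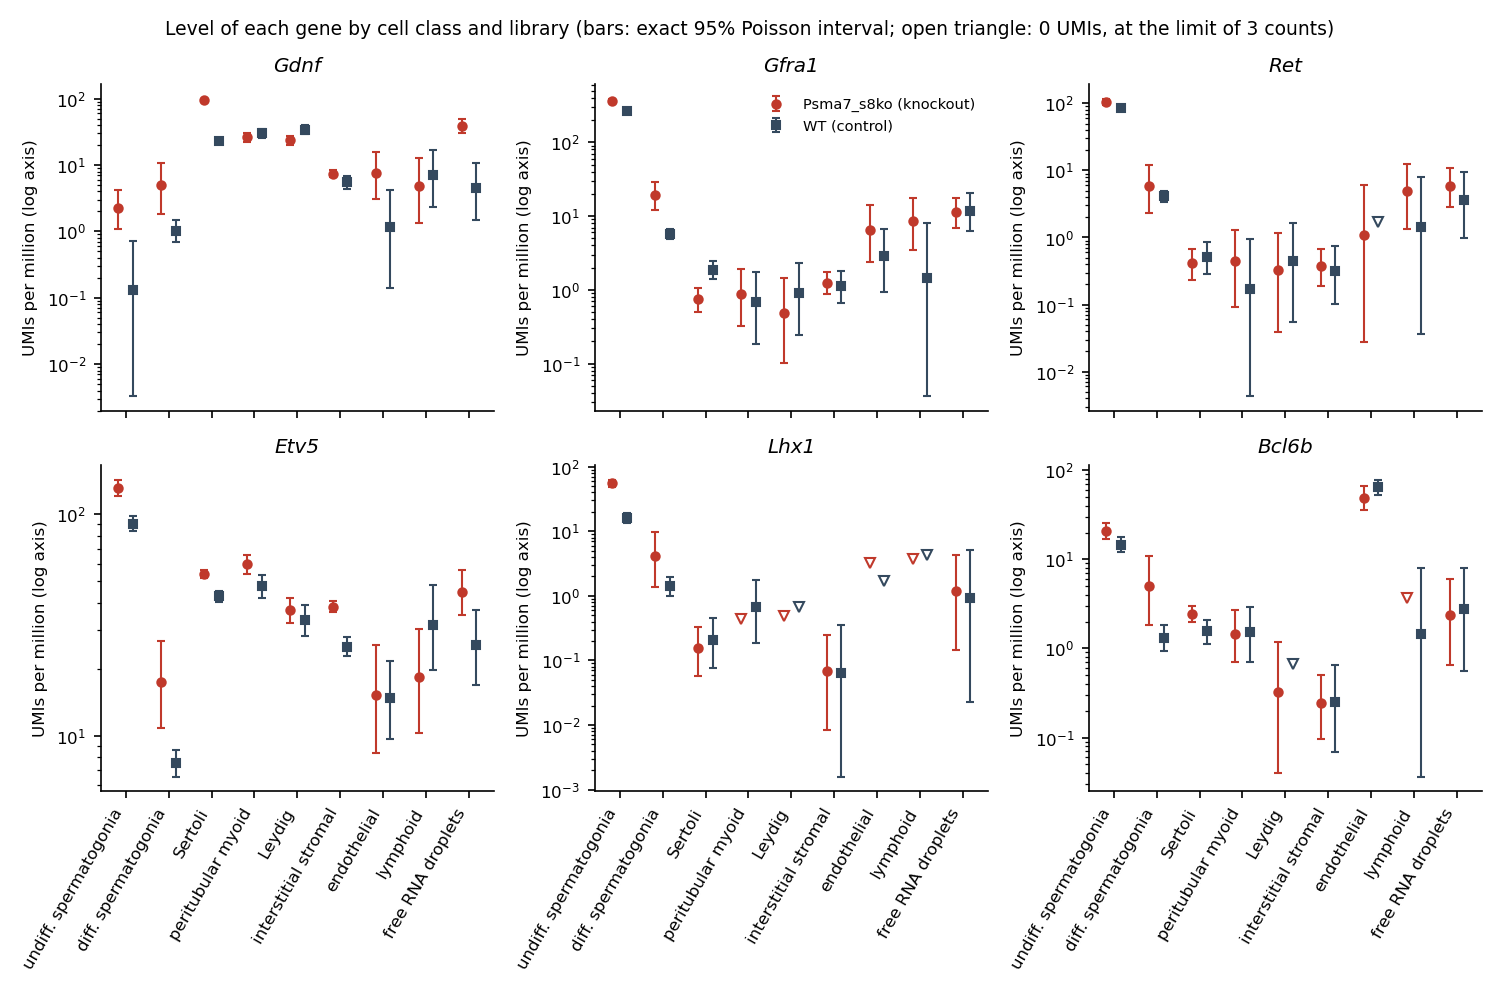
Each panel gives the level of 1 gene in CPM on a log axis by cell class, knockout left of control, with exact 95% Poisson intervals as bars and an open triangle for 0 UMIs, placed at the limit of 3 counts. Gdnf peaks in Sertoli cells of the knockout at 94.8 while Gfra1, Ret and Lhx1 peak in undifferentiated spermatogonia, at 364, 105 and 54.9 in the knockout and 267, 85.0 and 15.9 in the control.

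The response genes were then read in undifferentiated spermatogonia with and without a Gfra1 UMI among 3000. With a Gfra1 UMI, Etv5 was at 159.9 CPM in the knockout and 152 in the control, a log2 ratio of 0.07 (-0.13 to 0.27). Ret was at 117 against 133 there, a log2 ratio of -0.18 (-0.40 to 0.05), and Bcl6b at 25.4 against 20.7, a log2 ratio of 0.30 (-0.24 to 0.84). Intervals of these 3 hold 0. Lhx1 was at 64.6 against 33.9, a log2 ratio of 0.93 (0.55 to 1.31).

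In cells without a Gfra1 UMI the libraries stood further apart for Etv5, Ret and Lhx1. Etv5 was at 95.2 CPM in the knockout and 54.6 in the control, a log2 ratio of 0.80 (0.52 to 1.08), and Ret at 90.0 against 57.3, a log2 ratio of 0.65 (0.37 to 0.93). Lhx1 was at 41.8 against 5.63, a log2 ratio of 2.88 (2.25 to 3.58), or 7.43-fold. Bcl6b was at 15.3 against 11.3, a log2 ratio of 0.46 (-0.26 to 1.12) that overlaps the value with a Gfra1 UMI. Within the control, cells with a Gfra1 UMI had 6.02 times the Lhx1 level of those without, and within the knockout 1.55 times. The same ratio for Etv5 was 1.68 in the knockout and 2.78 in the control, for Ret 1.31 against 2.32, and for Bcl6b 1.66 against 1.84. Over 0, 1 and at least 2 Gfra1 UMIs, Lhx1 was at 41.8, 66.1 and 62.8 in the knockout, and at 5.63, 15.9 and 48.5 in the control. A cell without a Gfra1 UMI among 3000 may still express the gene, and Gfra1 itself was higher in the knockout, so cells of the split cannot be matched for their true Gfra1 level.

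**Figure D4:**
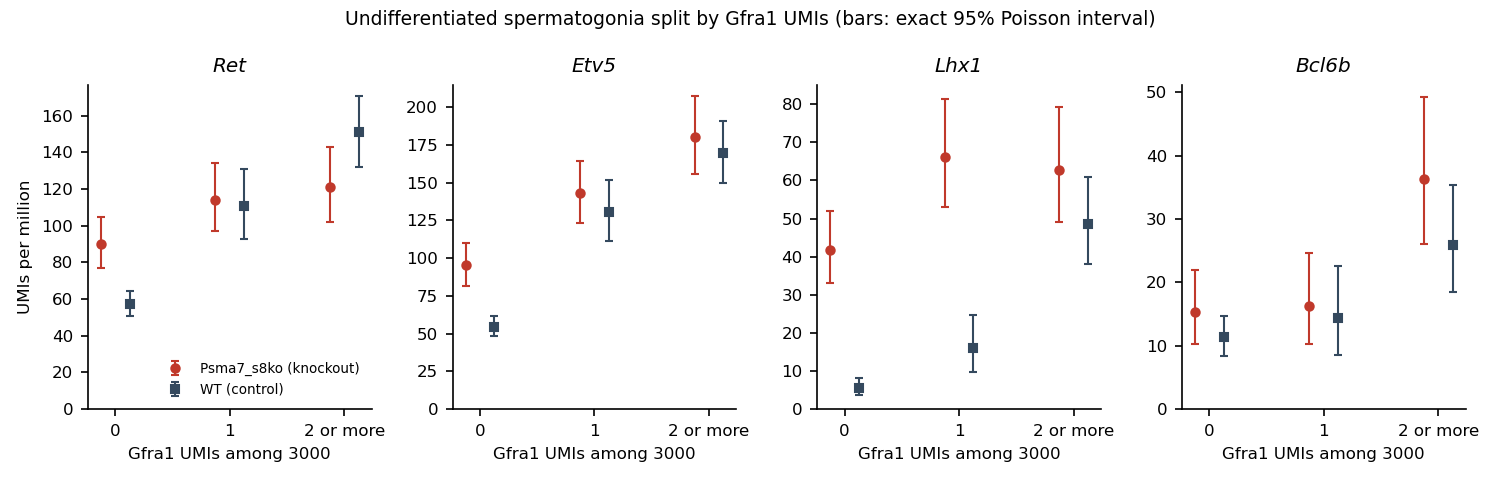
Points give CPM of Ret, Etv5, Lhx1 and Bcl6b in undifferentiated spermatogonia with 0, 1 or at least 2 Gfra1 UMIs among 3000, knockout left of control, with exact 95% Poisson intervals as bars. At 0 Gfra1 UMIs Lhx1 is at 41.8 in the knockout and 5.63 in the control, and at 2 or more at 62.8 and 48.5.

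A wider list of 17 GDNF-regulated genes of mouse spermatogonia, which holds the 3 response genes, was measured in undifferentiated spermatogonia. The list gives no direction of regulation for its genes. Of these, 14 were higher in the knockout, 9 of them at least 1.5-fold, and 1 was at least 1.5-fold lower, beside 14.2% of all genes higher and 8.47% lower. The median log2 ratio was 0.61, beside 0.05 over all genes. The highest were Lhx1 and Egr3, an immediate early factor gene at 12.5 CPM in the knockout against 4.83 in the control. The lowest were Egr4, at 90.7 against 155, and Foxo1, a stem cell maintenance factor gene, at 262 against 341. Among the list's other genes, named after their values were seen, Id4, an inhibitor of helix-loop-helix factors, was at 101 against 43.8 and Nanos2, an RNA-binding repressor of differentiation, at 8.17 against 3.40. The other 3 of the 17 were lower, and so were all 10 markers of the class, as given above.

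Genes of the feedback on ERK signalling and the ETS factors it drives were higher as a group. All 11 measured members of 13 were higher in undifferentiated spermatogonia of the knockout, 8 of them at least 1.5-fold, beside 14.2% of all genes, with a median log2 ratio of 0.98. The highest were Dusp4, an ERK phosphatase gene, at 9.07 CPM against 3.27, and Spry4, an inhibitor of receptor kinase signalling, at 24.3 against 9.67. The lowest were Spred1 (154 against 116) and Spred2 (129 against 112), which restrain RAS. The list was also higher in classes with Gfra1 near background: its median was 0.69 in Sertoli cells, 0.49 in peritubular myoid cells, 0.40 in Leydig cells and 0.38 in stromal cells, and 0.07 in endothelial and -0.23 in lymphoid cells.

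Stress and immediate early genes of the kind that tissue handling raises were higher in the same classes. All 16 genes of such a list, chosen after the values were seen, were higher in undifferentiated spermatogonia of the knockout. Of these, 10 were so by at least 1.5-fold, beside 14.2% of all genes. Their median log2 ratio was 0.95, beside 0.05 over all genes, and their summed level was 2315 CPM against 1551. Their median was 0.88 in Sertoli cells, 0.49 in peritubular myoid cells, 0.37 in Leydig cells and 0.31 in stromal cells, and -0.18 in endothelial and 0.09 in lymphoid cells. Their part in the GDNF-regulated and ERK lists was not tested. The 9 measured ERK genes that are not on the handling list were all higher in undifferentiated spermatogonia, with a median of 1.03. Of these, 6 were at least 1.5-fold higher, beside 14.2% of all genes. The median of this reduced list was 0.48 in Sertoli, 0.49 in peritubular myoid, 0.39 in Leydig and 0.41 in stromal cells. In endothelial and lymphoid cells it was -0.12 and -0.34. Sertoli markers, all 9 detected in undifferentiated spermatogonia, summed to 257 CPM in the knockout and 129 in the control there. By those markers free RNA was at most 4.23% of the UMIs of the class in the knockout and 4.22% in the control.

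Split by Gfra1, the medians of the lists again stood further apart in cells without a Gfra1 UMI. They were taken over 17 GDNF-regulated genes and 8 markers in cells with a Gfra1 UMI, and over 15 and 10 in cells without. The GDNF-regulated genes had a median log2 ratio of 0.38 in cells with a Gfra1 UMI and 0.80 in those without. The ERK list had 0.67 in cells with and 1.06 in cells without. For the handling list the values were 0.95 and 1.11, and for the markers of the class -0.44 and -0.91. Summed levels of the GDNF-regulated genes were 1422 CPM in the knockout against 1178 with a Gfra1 UMI, and 1214 against 987 without. Those of the handling list were 2230.3 against 1489.9 and 2385 against 1592. By these sums the 2 lists stood about as far apart in both kinds of cells. The ERK list had 923 against 676 and 792 against 462, and the markers 641 against 968 and 709.6 against 1178.

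The genes that carry the signal inside the cell showed no common direction. Of 25 genes of RET signalling, from SRC family kinases and adaptors to AKT and ERK, 24 were measured in undifferentiated spermatogonia. Of these 13 were higher and 11 lower in the knockout, 1 in each direction by at least 1.5-fold, beside 14.2% of all genes higher and 8.47% lower, and the median log2 ratio was 0.03. The highest were Lyn, a SRC family kinase gene, at 14.7 CPM against 8.75, and Ptpn11, the SHP2 phosphatase gene, at 87.6 against 59.6. The lowest was Mapk3, which encodes ERK1, at 27.7 against 41.9.

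Of the other ligands and receptors of the GDNF family, 4 were measured beside Gfra1 and Ret in undifferentiated spermatogonia, and none differed by 1.5-fold. Ncam1, an alternative GDNF receptor, was at 45.4 CPM in the knockout against 35.4, Nrtn, the neurturin gene, at 11.1 against 11, and Gfra3, the artemin co-receptor, at 7.03 against 9.67. FGF signalling, the other growth factor input to these cells, had 6 measured genes and a median of 0.11. Fgf9 was at 28.4 against 12.3 and Fgfr4 at 15.4 against 9.53, while Fgf8 was at 2.04 against 8.62. In Sertoli cells Fgf9 was at 4.61 against 2.03, and all 6 measured FGF genes were higher in the knockout, with a median of 0.36. Only 2 of them, Fgf9 and Fgf2, were so by at least 1.5-fold, beside 18.3% of all genes, and 4 of the 6 intervals held 0, that of Fgf2 (0.948 against 0.620) among them.

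**Figure D5:**
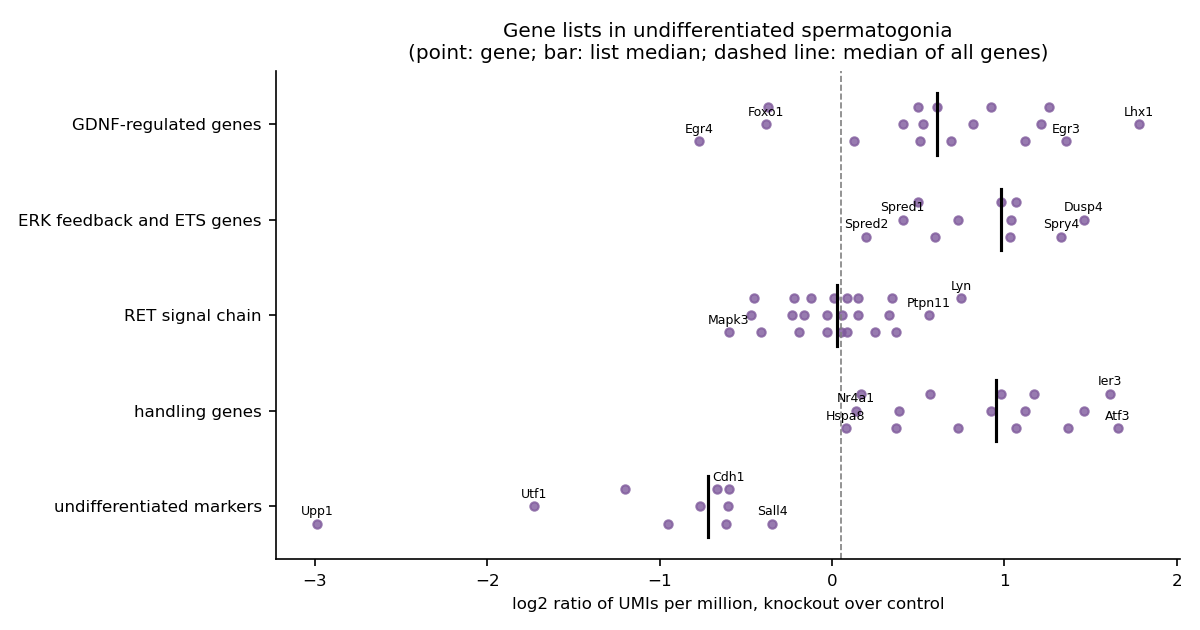
Each point is the log2 ratio of CPM, knockout over control, of 1 gene of a list in undifferentiated spermatogonia, with the list's median as a bar and the median of all genes, 0.05, as a dashed line. The list medians are 0.61 for GDNF-regulated genes and 0.98 for ERK feedback and ETS genes, against 0.03 for the RET chain.

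The knockout had more ligand UMIs and fewer receiving cells, so their quotient differs more than either by construction. It had 4253 somatic Gdnf UMIs and 225 spermatogonia with a Gfra1 UMI, or 18.9 per such cell, and the control had 1100 and 407, or 2.70 per cell, a 6.99-fold difference. Per Gfra1 UMI in spermatogonia the values were 2.61 in the knockout and 0.50 in the control. These ratios count the cells that were captured and vary with how well each class was captured.

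Genes most like the members were sought by Pearson's r of log2 levels over 18 points, each a cell class of 1 library, among 16837 genes; the points share libraries, depth and cell classes. Gdnf was most like Gm49708 (0.95), Drd4 (0.94), Dync1i1 (0.92), Cpe (0.92) and Vnn1 (0.91). In Sertoli cells Drd4 was at 74.1 CPM in the knockout against 74.7, Dync1i1 at 525 against 619 and Cpe at 353 against 390.0, whereas Vnn1 was at 39.5 against 22.9. Gfra1 was most like Sall3 and Ret (0.97 each), then Gm34933, Rmst and Gm20757 (0.94 to 0.96), and Ret had the same 4 genes and Gfra1 as its nearest. Among the members, r was 0.93 for Ret with Lhx1, 0.91 for Gfra1 with Lhx1, 0.12 for Etv5 with Bcl6b and -0.48 for Gdnf with Gfra1.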

How the data were processed

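The authors deposited raw UMI counts per gene and barcode for 2 unfiltered libraries, whose file headers name Cell Ranger 7.1.0 and whose submitters' processing notes name mm10. Barcodes were called as stated above, and Scrublet (scanpy 1.11.5) doublets were removed with the control's automatic threshold in both libraries, since the knockout's own marked 1 cell. Cells were clustered jointly (leidenalg 0.10.2, resolution 1, 35 clusters) without the 6 genes and the listed genes. A cluster was named if at least 3 markers of a type were found. Haemoglobin genes were kept out of the leading genes, and spermatogonial stages were settled by the share of markers found, both chosen after the data were seen. Log2 ratios put the knockout over the control, with UMIs first summed by library and class and 0.5 added to each sum (numpy 2.4.6, scipy 1.17.1). Levels have Poisson, shares Clopper-Pearson and ratios exact conditional binomial intervals. Those of ratios were tried on simulated Poisson counts, the model they assume, so the trial does not cover UMIs that gather in few cells. UMIs count molecules, but cells of 1 library are not replicates. Counted genes had at least 30 UMIs. For each list the 2 highest and 2 lowest genes are named, except where a gene is not reported here. Members and lists were chosen with earlier results of these data known. Psma7's floxed exons are not given in the sources used here, so its counts check the label only in part.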

Additional observations from a re-analysis of the deposited data

How the results depend on the processing

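Of 393 values of 39 results under other settings, 361 stayed close to those reported, 32 moved and 0 changed sign, and 20 results had no value that moved. With at most 10% mitochondrial UMIs the log2 ratio of Gdnf was 1.25 in somatic and 2.24 in non-dividing Sertoli cells, that of Gdnf UMIs per Gfra1-positive spermatogonium was 2.35, and 9.69% of control cells held both receptor genes. Gfra1 in pooled spermatogonia was at 2.35 with each library clustered alone and 2.11 after centring on the median of all genes. Thinning to 6000 UMIs gave a Gfra1 share of 68.3% in the knockout and 54.1% in the control, and a share with both receptors of 32.1% and 26.3%. Summed over the Sertoli clusters with at least 50 cells in both libraries, a choice made after seeing the data, Gdnf was at 1.72 and Etv5 at 0.21. Both sums lie above the ratio inside each of these clusters. Of the counts of genes past 1.5-fold, in either direction, those that moved were as follows. At 2-fold they were 5 GDNF-regulated genes, 5 ERK genes and 0 RET chain genes. Also at 2-fold, in Sertoli cells, they were 1 FGF gene and 1 regulator of Gdnf. With no minimum of UMIs they were 3 GDNF family genes in undifferentiated spermatogonia, 8 in Sertoli cells and 4 FGF genes in Sertoli cells. With cells of at least 500 UMIs and 250 genes they were 1 GDNF family gene and 1 RET chain gene in undifferentiated spermatogonia; the RET chain also had 1 with doublets kept and with the members kept in the clustering. FGF genes in Sertoli cells had 1 under every other moved setting. With at least 100 UMIs per gene the GDNF family median in Sertoli cells was 1.07, and with 5% free RNA subtracted the median of the regulators there was -0.27; the cause of these moves was not tested. With each library clustered alone, knockout spermatogonia formed a single cluster and gave no undifferentiated values. No paired analysis was possible because each genotype had 1 library. That number, and 288 and 51 knockout spermatogonia, set the precision.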

Other observations

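Gfra1 was also found in an unnamed cluster of 191 knockout and 16 control cells, led by Rmst, Pax8, Ecrg4, Crisp1 and Cldn4. It had 116 CPM of Gfra1 (89.5 to 148; 65 UMIs in 12 cells) in the knockout and 74.8 (4 UMIs in 1 cell) in the control.

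Other ligands and co-receptors of the GDNF family had their highest levels outside the undifferentiated class. Nrtn was at 23.3 CPM in differentiating spermatogonia of the knockout and 27.7 in those of the control, and at 24.9 in control cells at meiotic entry. Gfra3 was at 26.6 against 11.5 in differentiating spermatogonia. Gfra2, the neurturin co-receptor gene, was at 16.6 against 14.9 in stromal and at 13.6 against 14.8 in peritubular myoid cells. These genes were named after their values were seen, and no test between the libraries was possible.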
